A study of Homo sapiens with 6 samples.

Results

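Hypoxic H460 cells, a human large cell lung cancer line, were compared with and without 100 nmol/L of BAY 87-2243, an inhibitor of HIF-1 activity in the study's terms. The comparison rests on 2 of the 6 arrays of the series, 1 with the compound and 1 with DMSO, and each of 18417 genes was given the log2 ratio of its intensity on the first array to that on the second. Both arrays hold RNA of cells kept for 16 h at 1% pO2 in medium with 0.5% FCS, after seeding in 10% FCS. The cells without compound received 0.1% DMSO, the solvent. The other 4 arrays are a normoxic pair, with DMSO and with 100 nmol/L of the compound, and a pair of hypoxic arrays at lower concentrations. The labels of that pair conflict, because the title of one gives 10 nM where its source name gives 1 nM, and the title of the other gives 1 nM where its source name gives 10 nM. They are named by their titles here, and no order of dose is taken from them.

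With 1 array per condition there is no replicate check on any difference, and no p-value is given. Genes are therefore described by a rule of size, a difference of 2-fold or more in either direction, and the number of arrays limits the precision of every value. Intensities are on the linear scale on which they were deposited, and levels of different genes are not compared, because probes differ in brightness. In bulk RNA, fewer cells that express a gene and less of its RNA per cell cannot be told apart. Of 5 epithelial markers none differed by 2-fold. In hypoxia with DMSO the keratin genes KRT8 and KRT18 were above the array's median of 138, at 10273 and 8273, and the adhesion genes EPCAM and CDH1 were below it, at 64.5 and 45.8. None of 10 markers of blood, endothelial, fibroblast and red cells differed by 2-fold (median log2 difference -0.23), and PTPRC, which marks white blood cells, was at 19.2 with DMSO and 22.6 with the compound.

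Cells sense oxygen through prolyl hydroxylases that mark the α subunits of the hypoxia-inducible factors (HIF) for degradation. Under hypoxia these subunits persist, pair with ARNT and bind short DNA elements at genes for angiogenesis, glycolysis, lipid storage and matrix formation. Hypoxic cells are also known to limit costly processes such as the making of ribosomes, which takes place in the nucleolus and needs RNA polymerase I, many assembly factors, and small nucleolar RNAs (snoRNAs) that guide the chemical modification of ribosomal RNA.

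In hypoxia, 142 genes (0.771% of all genes) were at least 2-fold higher with the compound than with DMSO, and 186 genes (1.01%) were at least 2-fold lower. For a short list, no gene past 2-fold, or a single one, is therefore no result about its members. The decreases were led by HIF target genes such as HILPDA, ANKRD37 and ADM. The increases held snoRNA genes, factors of ribosome assembly, immediate early genes and single genes such as DKK1, PIGW and TFRC. Of the 142 higher genes 74 belonged to none of the gene lists used below, and of the 186 lower genes 155 did not. The list of ZNF genes was left out of that count. Among these genes large decreases were more frequent than large increases, with 4-fold reached by 16 of the lower and 5 of the higher genes. The median size was 2.34-fold among the lower genes and 2.26-fold among the higher ones. Probe sets without a single gene symbol are not included, and of those 686 were 2-fold higher and 366 lower. Over all genes the median log2 difference was -0.04, and 84.1% of genes lay within 0.5 of 0. Of the 142 higher genes 118 were among the 11301 brighter genes, those above the median probe set by their mean over the 6 arrays, and of the 186 lower genes 129 were.

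The count of higher genes depended on the scaling and on the array used as the control. Higher genes made up 43.3% of the calls, and 60.4% (215 higher and 141 lower) when each array was centred on its median. When the array titled 10 nM served as the hypoxic control, 54 genes were 2-fold higher and 147 were 2-fold lower. That array holds RNA of cells that also received the compound, at 10 nM by its title and 1 nM by its source name. Here and below, a call lost against it can therefore not be assigned to the DMSO array or to the compound. Of the 142 higher genes 44 remained past 2-fold against that array, and of the 186 lower genes 116 did. Nearest to the threshold on the higher side were C6orf62 (log2 difference 1.00138) and FST (1.00219) inside it, and CCDC86 (0.99997) and EXOSC3 (0.999781) outside it. On the lower side CP (-0.999976) lay just outside.

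**Figure D1:**
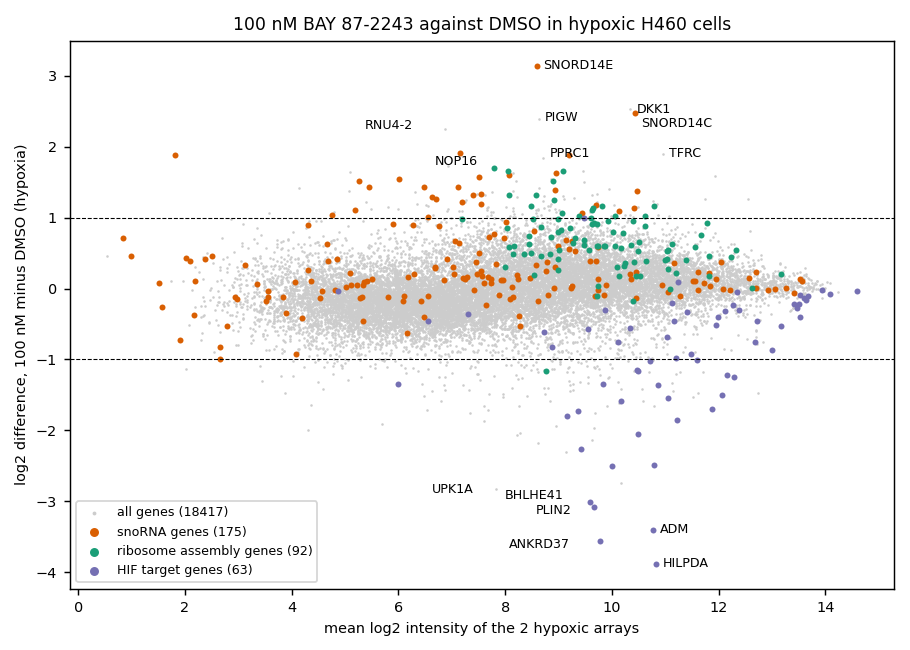
Log2 difference between 100 nmol/L BAY 87-2243 and DMSO in hypoxia (vertical axis) against the mean log2 intensity of the 2 hypoxic arrays (horizontal axis), with 1 point per gene, snoRNA, ribosome assembly and HIF target genes in colour, and dashed lines at 2-fold. HIF targets reach down to -3.88, ribosome assembly genes lie mostly above 0, and snoRNA genes are spread over the whole range of intensity and reach 3.14.

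The 24 largest increases among genes that reached the array median included 8 snoRNA genes, and they differed in their values on the normoxic arrays. Intensities are given below in the order normoxia with DMSO and with 100 nmol/L, hypoxia with DMSO, the array titled 10 nM, the array titled 1 nM, and hypoxia with 100 nmol/L. DKK1, which encodes a secreted antagonist of WNT signals, was at 1057, 3490, 541, 727, 1722 and 3120. It was thus high on both arrays with 100 nmol/L, with a log2 difference of 2.53 in hypoxia and 1.72 in normoxia. EGR1, an immediate early transcription factor, was at 1517, 5751, 2248, 2433, 5780 and 6727 (log2 difference 1.58 in hypoxia and 1.92 in normoxia). IL1RL1, the receptor of interleukin-33, was at 66.3, 206, 67.4, 89.3, 155 and 223, and the kinase gene NUAK2 at 394, 988, 421, 518, 1020 and 1196. For these genes both DMSO arrays were low and both arrays with 100 nmol/L were high.

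Other large increases were low on the hypoxic DMSO array and high on both normoxic arrays. The rule of size itself favours a low value in hypoxia with DMSO for higher genes and a high one for lower genes. TFRC encodes the transferrin receptor, through which cells take up iron, and was at 6222, 6633, 1028, 1056, 2405 and 3841, a log2 difference of 1.90 in hypoxia and 0.09 in normoxia. PIGW, an enzyme of the synthesis of glycosylphosphatidylinositol anchors, was at 1146, 1067, 173, 263, 564 and 903 (2.39 in hypoxia and -0.10 in normoxia). PPRC1, a coactivator of genes for mitochondrial biogenesis, was at 1015, 1016, 222, 260, 632 and 797 (1.84 and 0.00). In hypoxia with 100 nmol/L each of these 3 genes was above hypoxia with DMSO and below both normoxic arrays. CDC25A, a phosphatase that starts S phase, was at 624, 638, 161, 233, 370 and 498. ELOVL6, a fatty acid elongase, was at 1331, 1032, 270, 451, 540 and 792. The pseudogene NMRAL2P was at 3346, 1342, 398, 421, 749 and 1254, so with 100 nmol/L it was 3.15-fold higher in hypoxia while its log2 difference in normoxia was -1.32.

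**Figure D2:**
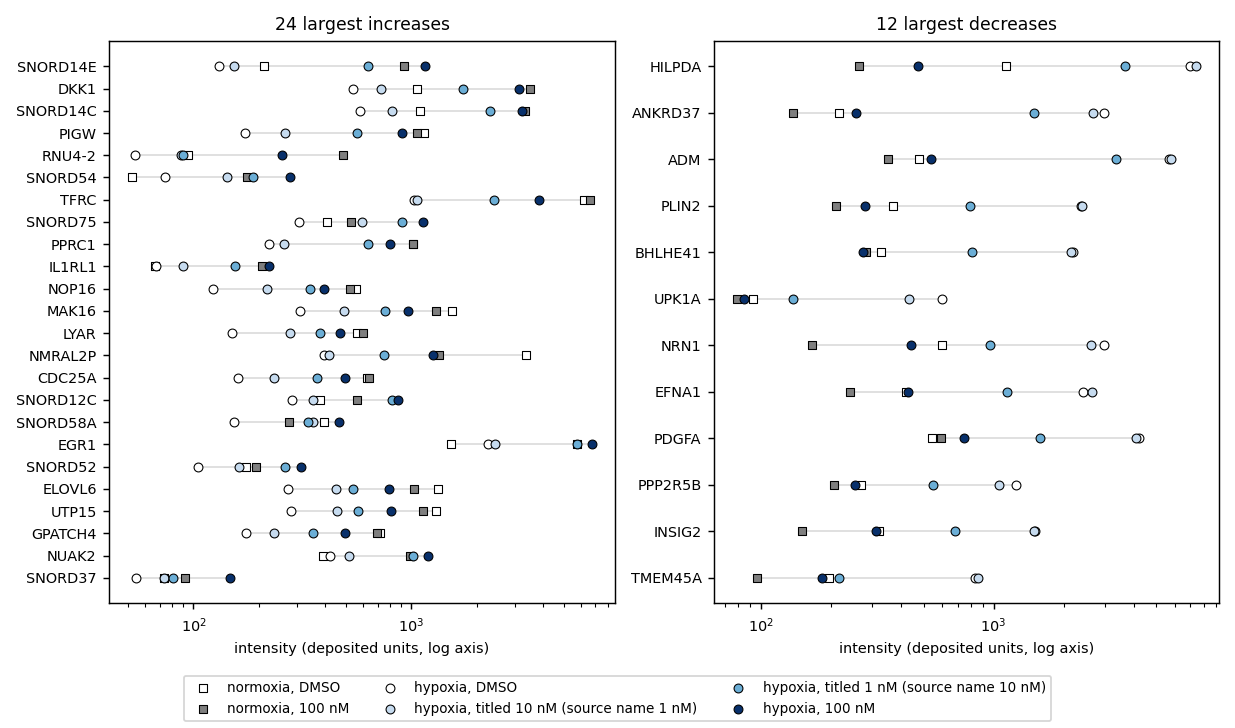
Intensity (horizontal log axis, deposited units) of the 24 largest increases (left) and 12 largest decreases (right) at 100 nmol/L in hypoxia, with 1 symbol for each of the 6 arrays. DKK1 and EGR1 are high on both arrays with 100 nmol/L, TFRC, PIGW and PPRC1 are high on both normoxic arrays, and all 12 decreases have their 2 highest values on the array titled 10 nM and that of hypoxia with DMSO.

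The normoxic pair shares no array with the hypoxic comparison and so gives separate values for the same genes. Of the 142 genes higher in hypoxia, 16 (11.3%) were also 2-fold higher with 100 nmol/L in normoxia, where 0.358% of all genes were, and these 16 made up 24.2% of the 66 genes higher in normoxia. They comprised DKK1, IL1RL1, NUAK2, ID3, DUSP2, SPANXN4, the immediate early genes EGR1, NR4A1 and IER2, the spliceosomal RNA gene RNU4-2, and 6 snoRNA genes. The other genes moved less in normoxia, with 104 of the 142 within 1.5-fold and a median log2 difference of 0.07. Of the 24 largest increases 8 were at least 2-fold higher in normoxia, 15 lay within 1.5-fold and NMRAL2P was 2-fold lower. A second pair without a shared array is that of the lower concentrations, taken as the array titled 1 nM minus the array titled 10 nM. That follows the doses of the source names, and an order by the titles would reverse every sign on this step. Here 10 of the 142 genes (7.04%) were 2-fold higher against 0.217% of all genes (a share of 25.0% of the 40 genes higher on that step), and 121 (85.2%) were above 0 against 53.1% of all genes, with a median of 0.37. Those 10 were SNORD14E, SNORD14C, PPRC1, EGR1, DKK1, SNORD12C, TFRC, PIGW, NOL6 and SNORD30. Of the 142, 1 gene, UGT2B17, was 2-fold lower on that step, and was dim, with a highest intensity of 32.1 over the 6 arrays.

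Of the 186 genes lower in hypoxia, 10 (5.38%) were also 2-fold lower in normoxia, where 0.956% of all genes were (a share of 5.68% of the 176 genes lower there), and the median log2 difference in normoxia was -0.15. They comprised VEGFA, the angiogenic growth factor, HILPDA, STC2, INSIG2, NRN1, EGLN3, PFKFB4, TMEM45A, DHRS3 and RNF122. VEGFA was at 1342 with DMSO and 505 with 100 nmol/L in normoxia, and at 1999 and 664 in hypoxia. On the step between the arrays titled 1 nM and 10 nM, 40 of the 186 (21.5%) passed 2-fold downward against 0.429% of all genes (a share of 50.6% of the 79 genes lower there), and 156 (83.9%) were below 0 against 46.9% of all genes, with a median of -0.69. HES1, a Notch target and transcriptional repressor, went in opposite directions in the 2 atmospheres. It rose from 347 to 1247 with 100 nmol/L in normoxia and fell from 5000 to 1738 in hypoxia.

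**Figure D3:**
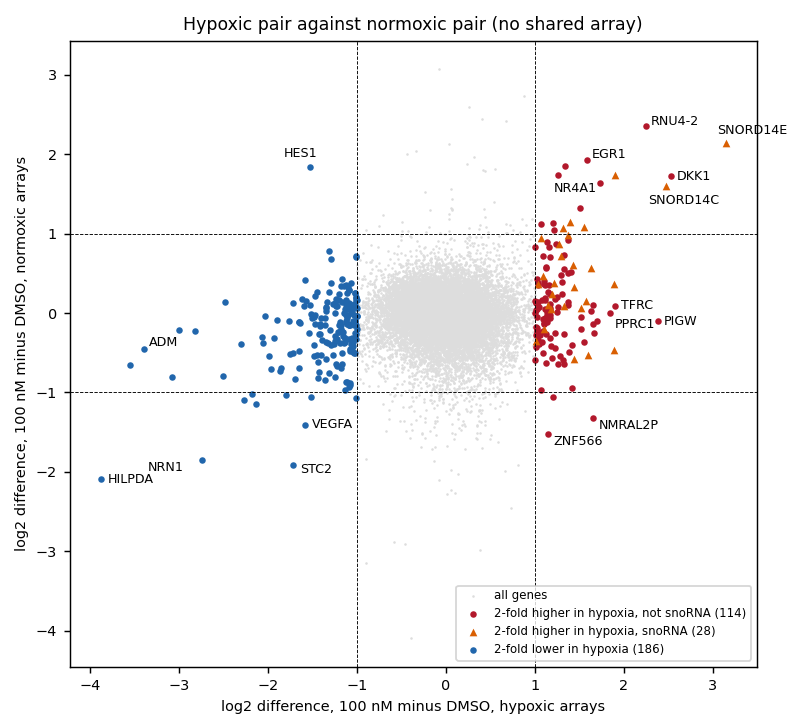
Log2 difference between 100 nmol/L and DMSO in hypoxia (horizontal axis) and in normoxia (vertical axis), with 1 point per gene, 2-fold higher and lower genes of the hypoxic pair in colour, and dashed lines at 2-fold. Of the 142 higher genes 16 lie beyond the upper dashed line and 104 lie within 1.5-fold in normoxia, and HES1 is the 1 lower gene that lies above the upper line.

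By type of gene in the reference annotation, 28 of the 142 higher genes were snoRNA genes, a share of 19.7% against 0.950% of all genes, and none of the 186 lower genes was. Of 175 measured snoRNA genes 16% were thus 2-fold higher, while the median over all of them was 0.14. With the array titled 10 nM as the control all 28 still lay above 0 (median 0.86), but 10 of them passed 2-fold. SNORD14E was at 210, 928, 130, 153, 635 and 1151 on the 6 arrays in the order above, a log2 difference of 3.14 in hypoxia and 2.14 in normoxia. SNORD14C was at 1096, 3315, 583, 816, 2305 and 3234 (2.47 and 1.60). Both belong to 1 family of similar RNAs, so the 2 values may not be separate. SNORD54 was at 52.5, 175, 73.9, 142, 188 and 276, so that it was lowest on the DMSO arrays. SNORD75 was at 408, 527, 305, 592, 910 and 1128, SNORD12C at 379, 564, 282, 353, 819 and 873, and SNORD58A at 397, 275, 154, 352, 336 and 467. SNORD58A was below DMSO with 100 nmol/L in normoxia (log2 difference -0.53), so the snoRNA genes did not share 1 pattern. The study names the RNeasy system for RNA of cell lines. Whether short RNAs such as snoRNAs were recovered alike for each array was not tested.

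The higher snoRNA genes were mostly of the C/D box class, which guides the methylation of ribosomal RNA. Of 112 genes of this class 24 were 2-fold higher and none lower (median 0.25), and 87 lay above 0. With the array titled 10 nM as the control 8 were. Of 61 genes of the H/ACA box class, which guides pseudouridine formation, 4 were higher (median 0.10), namely SNORA33, SNORA75, SNORA69 and SNORA29. SCARNA9L was the 1 higher gene of 16 Cajal body RNAs (1.13). Of 14 genes whose symbol starts with RNU, the spliceosomal RNA genes RNU4-2 and RNU5D-1 were higher. The 14 include RNU105B, which is annotated as a snoRNA gene and is also counted there. RNU4-2, a gene of the U4 RNA, was at 94.9, 487, 54.0, 87.3, 89.4 and 256 (2.25 in hypoxia and 2.36 in normoxia), and its near copy RNU4-1 had a log2 difference of 0.88. In normoxia 7 snoRNA genes were 2-fold higher and 3 lower.

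Most human snoRNAs are cut from introns of other genes, and 171 of the 175 lay within the bounds of another gene, on either strand. For 80 of them exactly 1 such host gene was measured, 60 hosts in all. In that group 14 snoRNA genes were 2-fold higher, and their median log2 difference of 1.41 follows in part from that choice. Their 12 hosts had a median of 0.14 (range 0.01 to 0.55), and none was 2-fold higher. Of all 60 hosts 1 was 2-fold higher, and of all genes 0.771%. The higher snoRNA genes outside that group did not have exactly 1 measured host and were not compared with one. Values of snoRNA genes that lie within the same host may not be separate. SNORD14E and SNORD14C lie within HSPA8, a constitutive chaperone gene, which had a log2 difference of 0.08. SNORD37 lies within EEF2, a translation elongation factor gene, and had a log2 difference of 1.44 against 0.01 for EEF2. Both hosts were bright in hypoxia with DMSO, HSPA8 at 16872 and EEF2 at 13382, where the highest intensity of the array was 24913. Whether differences are compressed at such levels was not tested. SNORA75 and SNORD20 both lie within NCL, which encodes the nucleolar protein nucleolin and had the highest value of these hosts (0.55). The excess over the host was not general, because over all 80 pairs 37 snoRNA genes lay above their host, with medians of 0.14 for the snoRNA genes and 0.21 for the hosts. Of the 28 higher snoRNA genes, several were dim, among them SNORD115-4 with 1.83 with DMSO and 6.75 with the compound.

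**Figure D4:**
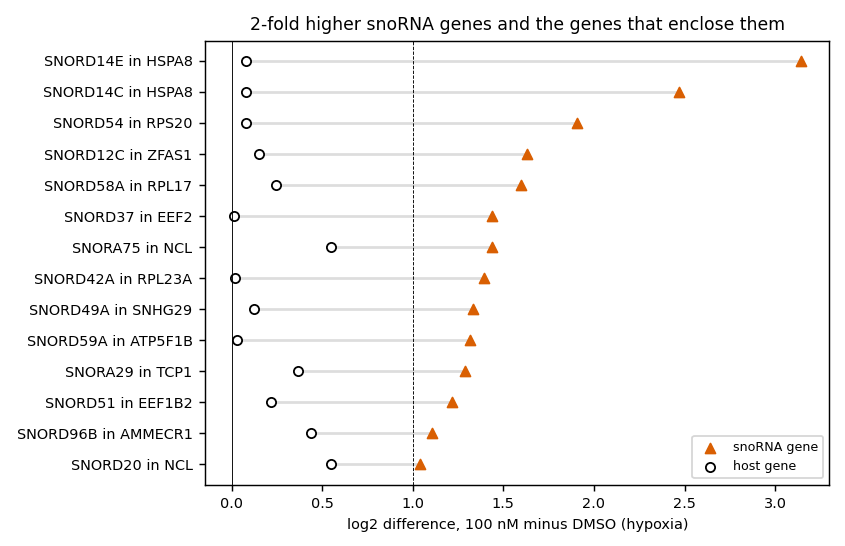
Log2 difference between 100 nmol/L and DMSO in hypoxia for the 14 snoRNA genes at least 2-fold higher that had 1 measured host gene (triangles), and for those hosts (circles), with a dashed line at 2-fold. The snoRNA genes lie between 1.04 and 3.14 and their hosts between 0.01 and 0.55.

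Genes of ribosome assembly lay mostly above 0. Of 92 measured genes in 3 lists, 16 were 2-fold higher and 1 lower, 88 lay above 0, and the median log2 difference was 0.60. Over all genes 45.6% lay above 0 with a median of -0.04. All 92 were brighter genes, of which 58.2% lay above 0 and 1.04% were 2-fold higher, with a median of 0.06. In normoxia the median of these genes was -0.07, with none higher and 1 lower. On the step between the arrays titled 1 nM and 10 nM it was 0.18. With the array titled 10 nM as the control the median was 0.41, and 3 genes were 2-fold higher. These lists were chosen with earlier results of the same arrays known, so their direction is no separate evidence.

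Among factors that assemble the large (60S) subunit, 8 of 36 were higher, all 36 lay above 0, and the median was 0.68. NOP16, a nucleolar protein, was at 558, 522, 123, 218, 343 and 398 on the 6 arrays (log2 difference 1.69). LYAR was at 563, 603, 150, 278, 379 and 472 (1.66), and MAK16, a factor of early 60S particles, at 1540, 1298, 307, 493, 757 and 969 (1.66). All 3 genes were lowest in hypoxia with DMSO, which the rule of size favours, and highest on the normoxic arrays. URB2 (1.33), RRS1 (1.32), BRIX1 (1.17), MRTO4 (1.06) and WDR12 (1.02) completed the 8.

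Of 41 genes of the small subunit processome and 40S assembly, 6 were higher and 1 lower (median 0.61). UTP15, which also takes part in the transcription of ribosomal RNA, was at 1297, 1130, 281, 457, 572 and 808 (1.52). NOL6 was at 873, 885, 311, 329, 702 and 739 (1.25), and LTV1, PNO1, BYSL and UTP11 had log2 differences between 1.03 and 1.17. The lower gene was IMP3, a protein of the U3 snoRNA complex, at 344, 291, 652, 633, 445 and 292 (-1.16).

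Of 15 snoRNA-binding and nucleolar proteins 2 were higher (median 0.49). They were NOP58, a core protein of C/D box particles (1180 with DMSO and 2654 with the compound), and DKC1, the pseudouridine synthase of H/ACA particles (1109 and 2243). FBL, the methyltransferase of the C/D box particles, was at 6339 and 6355 (log2 difference 0.00). The machinery of the polymerases that make ribosomal and transfer RNA also lay above 0. Of 14 genes of RNA polymerase I and its factors TAF1A (1.37) and POLR1B (1.01) were higher and all 14 were above 0 (median 0.48), and of 19 genes of RNA polymerase III POLR3B (1.14) was higher (median 0.37). None of 19 cytosolic tRNA synthetases was 2-fold higher, but all 19 lay above 0 (median 0.29). None of these 5 calls (NOP58, DKC1, TAF1A, POLR1B and POLR3B) passed 2-fold with the array titled 10 nM as the control. Of 68 genes for structural proteins of the cytosolic ribosome none was past 2-fold and the median was 0.08, although RPL22L1 was just under the threshold (0.99) and RPL23 was at 0.86. Their counterparts in the mitochondrial ribosome had a median of 0.32. MRPS23 (1.12) was the 1 of 73 that was 2-fold higher (1.37%, against 0.771% of all genes), and none was with the other control.

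Lists of growth metabolism were set beside these. Of 8 genes of polyamine synthesis the rate-limiting enzymes AMD1 and ODC1 were higher (0.93 and 1.18 on the log2 scale with the array titled 10 nM as the control), ODC1 at 8582, 5504, 2203, 2328, 4242 and 5268 and AMD1 at 1631, 1125, 402, 512, 839 and 975. With 100 nmol/L both lay below DMSO in normoxia (log2 difference -0.64 for ODC1 and -0.54 for AMD1). None of 19 genes of purine and pyrimidine synthesis was past 2-fold, although 18 lay above 0 (median 0.30), led by CAD (0.87). Of 24 genes of the G1/S transition and DNA replication CDC25A was higher and 21 lay above 0 (median 0.39), whereas none of 18 genes of G2/M and mitosis was (median 0.20, and -0.01 against the array titled 10 nM). The MYC gene itself had a log2 difference of 0.46, and of 12 genes of its network MXI1, a MYC antagonist and HIF target, was lower (-1.35). DNAJA1 (1.30) was the 1 higher gene of 11 heat shock genes (median 0.49), a call not made against the array titled 10 nM.

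Mitochondrial genes were examined because the study traces the compound to complex I of the respiratory chain. None of 34 complex I subunits differed by 2-fold (median 0.10), where 0.771% of all genes were higher and 1.01% lower. At these shares, none past 2-fold in a list of this length is no result about its members. Of 7 assembly factors of complex I, a list added after values were seen, NDUFAF1 (1.16), NDUFAF5 (1.15) and NDUFAF4 (1.03) were higher and all 7 lay above 0 (median 0.58). With the array titled 10 nM as the control none of these 3 calls was made (0.77, 0.33 and 0.85, with a median of 0.33 for the list). NDUFAF4 was at 2937, 3249, 1301, 1476, 2305 and 2659 on the 6 arrays. Among 16 genes of mitochondrial biogenesis PPRC1 was the 1 higher gene (median 0.34), and TFAM, which packs mitochondrial DNA, had a log2 difference of 0.64. None of 19 genes of mitochondrial protein import was past 2-fold, with TIMM23 the largest (0.98).

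Immediate early genes, which respond to growth factors and stress within minutes, were divided. Of 15 genes 3 were higher, namely EGR1 (1.58), IER2 (1.22) and NR4A1 (1.26), and 1 was lower, IER3 (-1.48), with a median of 0.32, while in normoxia 8 were higher and none lower (median 1.02). NR4A1, a nuclear receptor, was at 2491, 8295, 3862, 3877, 7258 and 9253. IER3, a regulator of cell survival, was at 2450, 2844, 11314, 10863, 7597 and 4066, which places its high values on the hypoxic arrays without and with the lower concentrations. JUN likewise had a log2 difference of -0.76 in hypoxia and 1.09 in normoxia. Among 14 feedback genes of the ERK pathway SPRY4 (1.15) was higher and SPRY1 (-2.06) lower, although both encode Sprouty inhibitors of growth factor signals. SPRY1 was at 214, 174, 608, 559, 333 and 145, and SPRY4 at 1065, 1896, 965, 1012, 1634 and 2147.

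Among the decreases, 25 of 63 measured HIF target genes in 5 lists were 2-fold lower and none higher, with a median log2 difference of -0.68 in hypoxia, -0.07 in normoxia and -0.45 on the step between the arrays titled 1 nM and 10 nM. The groups differed in size. Secreted and surface proteins had a median of -1.59 (9 of 13 lower), lipid droplet, mitophagy and stress genes -1.35 (6 of 11), collagen-modifying enzymes -0.93 (3 of 7), feedback and chromatin genes -0.82 (3 of 9), and genes of glucose and lactate -0.28 (4 of 23). EDN1, the precursor of the vasoconstrictor endothelin-1, stood against its group at 687, 987, 506, 661, 799 and 1004 (log2 difference 0.99). Within glycolysis the isoforms differed, since ALDOC (-1.25) and ENO2 (-1.86) were 2-fold lower while ALDOA (-0.05) and ENO1 (-0.08) were near 0. With DMSO, ALDOC was at 1706 in normoxia and 7696 in hypoxia, and ENO2 at 684 and 4548. ALDOA (5038 and 5296) and ENO1 (17150 and 17865) differed little between these 2 arrays. ENO1 was also among the brighter signals, and whether differences are compressed there was not tested. Of 7 measured HIF subunits and regulators none was past 2-fold, with HIF1A at 0.36, EPAS1 at -0.34 and ARNT at -0.31.

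The largest decreases after HILPDA, ANKRD37 and ADM were PLIN2, a coat protein of lipid droplets, at 368, 210, 2366, 2412, 793 and 279 on the 6 arrays (log2 difference -3.09), and BHLHE41, a transcriptional repressor of the circadian system, at 330, 284, 2195, 2146, 811 and 274 (-3.004). UPK1A, a tetraspanin of the urothelium, was at 92.3, 79.0, 602, 433, 138 and 84.8. NRN1, a neurite growth protein, was at 597, 166, 2970, 2636, 966 and 442, PDGFA, a growth factor chain, at 542, 597, 4201, 4093, 1585 and 750, and PPP2R5B, a subunit of the phosphatase PP2A, at 269, 205, 1247, 1058, 551 and 253. All of these genes were high in hypoxia with DMSO and on the array titled 10 nM, lower on the array titled 1 nM, and lowest among the hypoxic arrays at 100 nmol/L. Of the 12 largest decreases 11 lay below 0 in normoxia too and 4 were 2-fold lower there, PDGFA being the exception above 0 (0.14).

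Lists of Notch and hedgehog genes held 3 decreases. Of 13 Notch pathway genes HES1 (-1.52) and its relative HEY1 (-1.24) were lower (median -0.16), and HEY1 was at 94.7, 74.5, 180, 229, 116 and 76.1. Of 10 hedgehog pathway genes PTCH1, the receptor and a target of the pathway, was lower (-1.14, with a list median of -0.10), at 560, 286, 716, 712, 378 and 325. With 100 nmol/L in normoxia PTCH1 had a log2 difference of -0.97. None of 8 reference genes such as ACTB and HPRT1 was past 2-fold (median 0.08). Of the 466 zinc finger genes whose symbol starts with ZNF, 1 was higher and 3 lower in hypoxia, while 20 were lower in normoxia. Over all genes 0.771% were higher and 1.01% lower in hypoxia, and 0.956% were lower in normoxia. ZNF578, 1 of the 3 lower genes, was dim, at 6.01 with DMSO and 2.75 with the compound.

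HIF binds DNA at the core letters ACGTG or GCGTG, so the 250 bases before the RefSeq start site (assembly GRCh38.p14) were searched for them on both strands. The windows of 14239 measured genes were at hand. ACGTG was found for 44 of 138 lower genes (31.9%), 20 of 92 higher genes (21.7%) and 21.1% of all genes. GCGTG was found for 42.8%, 42.4% and 39.7%. CACGTG, which contains ACGTG on both strands and is also the letter sequence that MYC binds, was found for 11.6% of the lower genes, 6.52% of the higher genes and 7.86% of all genes. These are counts of letters and not of bound sites. Stretches that hold such letters are shown for 3 of the largest decreases and 2 of the largest increases, 5′ to 3′ on the strand of the gene, with every ACGTG or GCGTG of either strand in capitals (on the opposite strand they read CACGT and CACGC).
ANKRD37, chr4:185396661-185396720, plus strand: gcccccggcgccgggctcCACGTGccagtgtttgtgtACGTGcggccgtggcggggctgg
PLIN2, chr9:19127543-19127622, minus strand: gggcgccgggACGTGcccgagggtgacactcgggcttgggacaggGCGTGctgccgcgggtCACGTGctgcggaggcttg
BHLHE41, chr12:26125038-26125107, minus strand: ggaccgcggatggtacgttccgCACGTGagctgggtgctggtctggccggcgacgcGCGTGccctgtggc
TFRC, chr3:196082151-196082210, minus strand: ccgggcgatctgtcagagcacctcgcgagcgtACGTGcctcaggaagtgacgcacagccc
NOP16, chr5:176388599-176388658, minus strand: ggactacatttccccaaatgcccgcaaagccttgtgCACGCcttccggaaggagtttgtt

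The stretches of ANKRD37, PLIN2 and BHLHE41 each hold a CACGTG, that of TFRC holds 1 ACGTG and that of NOP16 holds a GCGTG on the opposite strand. TFRC was 2-fold higher and ANKRD37 2-fold lower with the compound, and both stretches hold ACGTG. These are single genes whose stretches were picked because they hold such letters. Over all windows ACGTG was found for 31.9% of the lower genes, 21.7% of the higher genes and 21.1% of all genes.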

How the data were processed

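In all, 6 Affymetrix Human Gene 1.0 ST arrays, 1 per condition, were used as the authors deposited them, in 1 table of linear intensity values per probe set. The methods name MAS 5.0 and Expressionist, the submitters' processing notes name RMA (background correction, quantile normalization and probe summary) without a version, and the input RNA amount also differs between methods and labels. The array medians lay between 128 and 140. The genome build of the probe sets is not given in the sources used here.

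Log2 was taken without pseudocount or filter. Probe sets were named by the platform annotation, where 19460 had 1 symbol, 1754 several and 12083 were not listed. Symbols were updated through RefSeq (19429 matched), and the brightest probe set stood for each of 18417 genes (769 had more than 1). No test was possible with 1 array per condition. The genes named are the 24 largest increases and 12 largest decreases that reached the array median on their brighter array, up to 3 members of each of 48 gene lists by size of the difference, all HIF subunits, reference genes and MondoA targets, and others singled out by a count or a comparison. Those others, among them FST, EXOSC3, CP, the further members of lists and the snoRNA genes beyond the named ones, were chosen after their values were seen. The comparison, members and lists were chosen with earlier results of these data known. Start sites, host genes and sequences are from RefSeq GRCh38.p14. The steps were tested on simulated data. The alternatives were quantile normalization, centring, brighter genes only, the mean of probe sets, an offset of 32 before log2, limits of 1.5-fold and 3-fold, and the array titled 10 nM as the hypoxic control. Quantile normalization together with that control was added after seeing the data. Python 3.11.15, numpy 2.4.6, pandas 2.3.3 and matplotlib 3.10.9 were used.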

Additional observations from a re-analysis of the deposited data

Results flagged for a closer look

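For 4 genes the log2 difference at 100 nmol/L passed 2-fold in hypoxia and in normoxia with opposite signs. DSCC1, a factor of sister chromatid cohesion, had 1.198 in hypoxia and -1.05 in normoxia. The pseudogene NMRAL2P had 1.65 and -1.32, and the zinc finger gene ZNF566 had 1.15 and -1.52. HES1 had -1.52 in hypoxia and 1.85 in normoxia. With 1 array on each side the difference between hypoxia and normoxia was not tested for any of them.

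Probe sets without a single gene symbol took no part in the comparisons. Of 13837 such probe sets 686 (4.96%) were at least 2-fold higher at 100 nmol/L in hypoxia and 366 (2.65%) at least 2-fold lower, and 118 of the 686 were also 2-fold higher in normoxia. Among the 4745 brighter ones 139 were higher and 33 lower.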

How the results depend on the processing

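Quantile normalization (152 higher and 195 lower), averaged probe sets (140 and 187) and brighter genes only (118 and 129) kept all counts within 1.5 times. The count of higher genes was 215 with centred arrays, 87 with 32 added before log2, 916 at 1.5-fold, 19 at 3-fold, 54 with the array titled 10 nM as the control, and 49 when quantile normalization was added to that, an alternative chosen after seeing the data. The count of lower genes was 112 with 32 added, 1049 at 1.5-fold and 37 at 3-fold. Genes higher in both atmospheres numbered 72 at 1.5-fold and 6 at 3-fold, and genes lower in both 5 with 32 added, 78 at 1.5-fold and 3 at 3-fold. A lower threshold admits more genes by construction; the other causes were not tested. Against the array titled 10 nM, 15 of the 24 largest increases and 12 of the 12 largest decreases stayed past 2-fold, and 10 of the 28 higher snoRNA genes did. With that control 2 of the 142 higher genes (UGT2B17 and ALG1L1P) and 7 of the 186 lower genes changed sign, among them ZNF578 (0.23), as did 12 genes named by the rule, ZNF578 included, and 4 of 51 list medians, those of G2/M genes (-0.014), other cell markers (0.027), sterol and fatty acid synthesis (-0.019) and ZNF genes (-0.039). The median of all genes went from -0.037 to 0.0012. The median of HIF subunits and regulators reversed to 0.0893 over brighter genes. No paired analysis was possible because each condition has 1 array. Without replicates, values of dim genes and of genes near 2-fold are the least certain, and culture, array and treatment cannot be told apart.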

Other observations

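The 3 targets of the glucose-sensing factor MondoA did not move alike. ARRDC4 was at 584 with DMSO and 79.3 with 100 nmol/L in normoxia, and at 149 and 99.1 in hypoxia. TXNIP was at 7209 and 2200 in normoxia, and at 2762 and 3194 in hypoxia. ARRDC3 was at 2759 and 3736 in normoxia, and at 7556 and 4603 in hypoxia. None of the 3 passed 2-fold in hypoxia. These differences between the atmospheres were not tested. None of 173 miRNA genes was 2-fold higher in hypoxia and 4 were lower (median -0.23), where 0.771% of all genes were higher and 1.01% lower. Of these 4, named after their values were seen, MIR181C was at 254 with DMSO and 117 with 100 nmol/L. MIR320C1 was at 81.0 and 37.7, MIR126 at 44.3 and 21.0, and MIR487A at 31.0 and 15.1. With DMSO all but MIR181C were below the array's median of 138, and with 100 nmol/L all 4 were below that array's median of 130.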
